A study of Mus musculus with 3 samples.

Results

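The cytosolic ribosomal protein genes are the 84 symbols of the deposited gene tables that start with Rpl or Rps followed by a digit, p or a and that reached 20 CPM (UMIs per 1000000 UMIs) in at least 1 of 3 libraries, out of 27998 genes. A UMI is a molecular tag that counts each captured RNA molecule once. In all, 87 symbols fitted the name rule, and 3 of them stayed below the minimum. Names with -ps (16 symbols) and the Rps6k kinases (10 symbols) were left out. The set holds 50 large-subunit (Rpl) and 34 small-subunit (Rps) symbols. In the GENCODE vM21 annotation of mm10 all 84 were matched by gene identifier, on 19 chromosomes, with 83 annotated as protein coding and 1, Rpl6l, as a processed pseudogene. Not every name is a ribosome component: Rps19bp1 encodes a protein that binds Rps19, and Rpl7l1 is known as a factor of ribosome assembly.

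The study measured RNA in single macrophages of the mouse heart, at steady state and 11 days after myocardial infarction, with droplet-based 3′ libraries (10x Chromium v2). The steady-state macrophage library and the day 11 library came from mice of genotype Cx3cr1CreER-YFP/+:R26Td/+, with CreER and YFP at the macrophage gene Cx3cr1 and a Td reporter at R26, and held live cells gated on CD45+, CD64+ and CD11b+. The third library, called here the mixed library, came from wild type mice at steady state and also held dendritic cells (DCs), gated as CD45+ CD64- CD11c+ with intermediate to high MHCII. All mice were C57BL/6, 8 to 12 weeks old, and all hearts were digested with enzymes in the presence of flavopiridol, an inhibitor of transcription. Each group had 1 library and the number of pooled animals is not stated, so no difference between libraries has a replicate check, and no p-value is given. All intervals are exact 95% intervals that cover counting error only.

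The 3 libraries held 1806, 1780 and 4697 barcodes (steady-state macrophages, mixed library, day 11) with 23711707, 14388327 and 45177529 UMIs. Between 7 and 11 barcodes were shared by any pair of libraries. After filters the macrophages numbered 1736, 1117 and 4433, and DCs 1, 623 and 44. A DC was a cell with at least 2 of 10 DC marker genes and less than 0.2% of its UMIs from the complement genes C1qa, C1qb and C1qc, which mark macrophages, and the remaining cells outside lymphoid, endothelial and fibroblast rules were counted as macrophages. The macrophage markers summed to 22552 and 21373 CPM in the macrophages of the reporter libraries but to 11289 CPM in those of the mixed library, where DC markers summed to 479 CPM against 67.5 and 66.1 CPM. In that library 299 of the 1117 cells had C1q under 0.2% of UMIs, and 214 cells with C1q under this limit had exactly 1 DC marker, so its macrophage group is not as pure as the other 2. Its results are therefore also given for the 818 cells with C1q at or above the limit. The 44 day 11 cells that met the DC rule came from a CD64+ gate and differed in markers from the DCs of the mixed library. Their Fcgr1, which encodes CD64, stood at 187 CPM, against 250 in day 11 macrophages and 7.44 in the DCs of the mixed library. Of the 10 DC markers Xcr1 and Ccr7 were at 0 in them, and Cd209a gave 1830 of the summed 2134 CPM. Their 6 monocyte markers summed to 952 CPM, with 2 at 0, against 442 CPM in day 11 macrophages and 418 CPM in the DCs of the mixed library. They are called DCs here by the rule alone.

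Ribosomes are built from ribosomal RNA and about equal numbers of copies of each ribosomal protein, divided into a small subunit that reads the mRNA and a large subunit that joins amino acids. The mRNAs of ribosomal proteins start with a cytosine followed by a run of pyrimidines, the 5′ terminal oligopyrimidine (TOP) tract, through which the mTOR pathway and the protein Larp1 set their translation together. In most cells they are among the most abundant mRNAs, and many have processed pseudogenes elsewhere in the genome that match them almost base for base.

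The TOP tract is shown because it is a feature known for this class of genes, though annotated starts showed it for only a part of the set. RefSeq starts (GRCm38.p6) were matched for 63 of the 84 genes. Counting a tract as C followed by at least 4 pyrimidines beginning exactly at an annotated start, 14 of the 63 (22.2%) had one, against 3.01% of 27025 genes. Allowing the tract to begin within 5 bases of the start, the numbers were 30 of 63 (47.6%) and 21.2%. The windows below hold 10 bases before and 20 bases after the start, 5′ to 3′ on the gene's strand, with the tract in capitals. A window without capitals says only that no such run begins at that base. Most windows shown have a tract at the start, unlike most of the 63 matched genes.
Rpl15, chr14:18270967-18270996, minus strand: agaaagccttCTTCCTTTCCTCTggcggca
Rpl35, chr2:39005112-39005141, minus strand: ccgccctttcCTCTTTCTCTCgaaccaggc
Rps6, chr4:86857348-86857377, minus strand: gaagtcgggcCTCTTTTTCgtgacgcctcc
Rpl38, chr11:114668570-114668599, plus strand: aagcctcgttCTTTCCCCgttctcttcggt
Rps27, chr3:90213629-90213658, minus strand: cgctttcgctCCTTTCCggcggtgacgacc
Rps27rt, chr9:114982720-114982749, minus strand: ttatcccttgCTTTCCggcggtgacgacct
Rps27l, chr9:66946076-66946105, plus strand: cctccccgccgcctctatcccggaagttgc
Of the last 3 genes, Rps27 encodes a small-subunit protein, Rps27rt is a copy of Rps27 on chromosome 9, and Rps27l is a diverged paralog, known as a target of p53, that encodes a close relative of the same protein. Rps27 and Rps27rt have a tract at the start. Rps27l has none beginning at that base, but a C followed by 4 pyrimidines begins 1 base further on, which the looser rule counts.

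In macrophages, the 84 genes together gave 16.2% of all UMIs in the steady-state library, 17.2% at day 11 and 21.9% in the mixed library. In the DCs of the mixed library they gave 29.4%, and in the 44 DCs of the day 11 library 22.5%. The day 11 share was therefore slightly above the steady-state library of the same genotype (ratio 1.06, 1.06 to 1.06) and below the other steady-state library (ratio 0.785, 0.784 to 0.786). The 2 steady-state libraries differed from each other by more than either day 11 ratio (ratio 1.35, 1.35 to 1.35). So the sign of the day 11 difference depends on which steady-state library it is set against. Restricted to cells with C1q at 0.2% or more, the ratio of day 11 to the mixed library was 0.854, and that of the 2 steady-state libraries 1.24. Because these are shares of a fixed total, more ribosomal protein RNA and less of other RNA cannot be told apart.

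**Figure D1:**
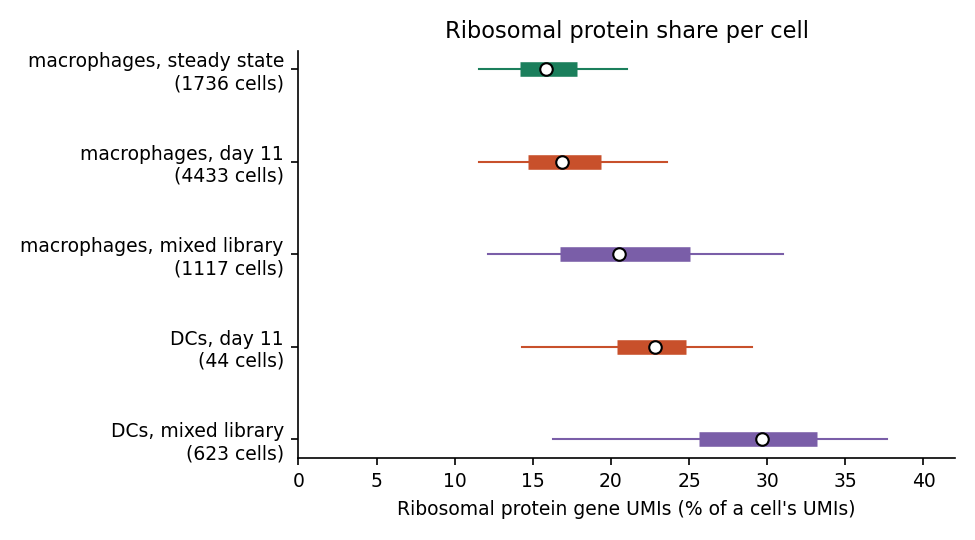
Share of each cell's UMIs from the 84 ribosomal protein genes (horizontal axis, percent), by library and cell class. Points are medians over cells, thick bars the quartiles and thin lines the 5th to 95th percentiles. Medians run from 15.8% in steady-state macrophages to 29.7% in the DCs of the mixed library.

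The plot of the share per cell shows that the groups overlap widely. The quartiles were 14.2% and 17.8% in steady-state macrophages, 14.7% and 19.4% at day 11, and 16.7% and 25% in macrophages of the mixed library. The SD between cells was 3.20, 3.70 and 5.93 percentage points in these 3 groups, while counting error alone would give 0.374, 0.437 and 0.561. Cells of 1 library therefore differed in their ribosomal protein share by far more than counting error.

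The share went with other measures of the cell, and these were not the same in each library. In the mixed library the median share was 17.5% in the lowest of 4 equal groups of cells by UMI number and 23.4% in the highest, and it was 24.5% in the lowest and 18.0% in the highest of 4 groups by mitochondrial share. In the steady-state and day 11 libraries the medians of the depth groups stayed between 15.5% and 17.1%. In all 3 libraries the share was lower in cells rich in C1q: cells with C1q between 0.2% and 0.8% of UMIs had a median of 20.8%, 22.9% and 18.6% (steady state, mixed, day 11), and cells with C1q at 1.5% or more had 15.6%, 17.6% and 16.5%. In the mixed library the 299 cells with C1q under 0.2% had a median of 25.6%. At day 11 the share was not graded below 1.5%, with 17.8% in cells under 0.2% and 18.7% in cells between 0.8% and 1.5%. Across cells of a library, Spearman's rho between the share and the C1q share was -0.41, -0.58 and -0.33, a description over cells that share a library and a total. The part of depth, mitochondrial share and C1q level in the differences between libraries was not tested.

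Within that total, the relative levels of the genes were much alike in the 3 libraries. Across the 84 genes the Pearson correlation of log2 CPM between libraries was 0.99, 0.99 and 0.98 for steady state against the mixed library, steady state against day 11, and the mixed library against day 11. The small-subunit genes gave 44.0%, 43.7% and 43.8% of the set's UMIs. The libraries count the 3′ ends of mRNAs, so CPM is not divided by gene length. The lowest, median and highest level of a gene were 44.9, 1874 and 6392 CPM in steady-state macrophages, 39.3, 2540 and 7742 CPM in the mixed library, and 39.4, 2022 and 5415 CPM at day 11.

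**Figure D2:**
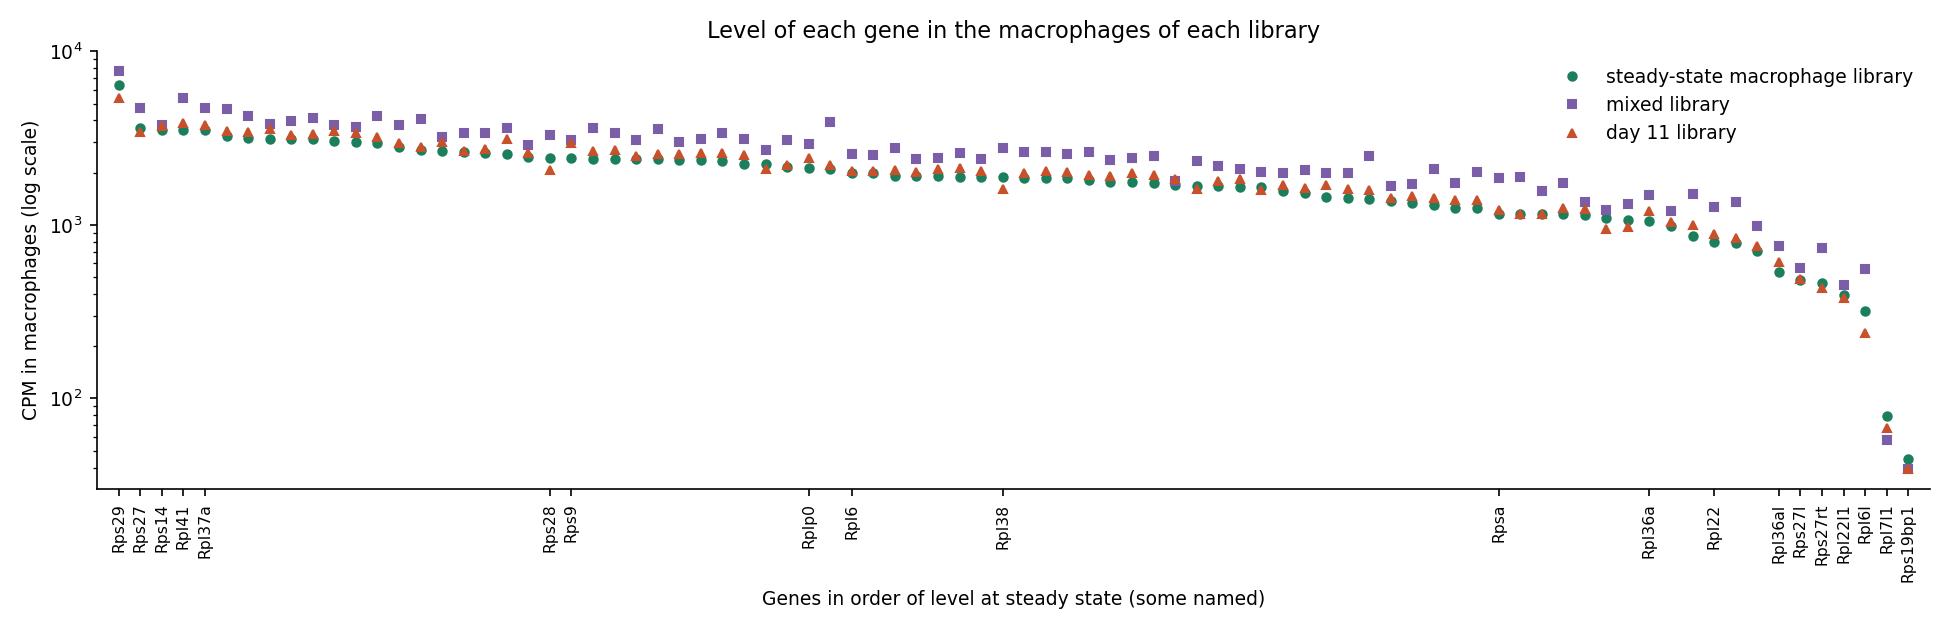
Level of each of the 84 genes in the macrophages of each library (CPM, log scale), in the order of their level in the steady-state macrophage library. Circles are steady-state macrophages, squares macrophages of the mixed library, triangles day 11; Rps29 is highest in each, at 6392, 7742 and 5415 CPM.

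The 5 highest genes in steady-state macrophages were Rps29 (6392 CPM), Rps27 (3599 CPM), Rps14 (3517 CPM), Rpl41 (3510 CPM) and Rpl37a (3505 CPM), which encode proteins of the small (Rps) and large (Rpl) subunit. At the other end stood Rps19bp1 (44.9, 39.3 and 39.4 CPM in steady-state, mixed-library and day 11 macrophages) and Rpl7l1 (79.2, 57.5 and 67.5 CPM). Over whole libraries the 3 members nearest to the minimum peaked at 45.0 CPM (Rps19bp1), 78.9 CPM (Rpl7l1) and 492 CPM (Rpl22l1). The 3 symbols below it, Rpl39l, Rpl3l and Rpl10l, which are tissue-restricted paralogs, peaked at 1.77, 1.74 and 0.139 CPM.

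Day 11 macrophages were compared with both steady-state references gene by gene, with a call at 1.5-fold. Against the steady-state macrophage library 68 of 84 genes were higher and 16 lower, with a median log2 ratio of 0.10, and none passed 1.5-fold in either direction, where 3.89% of the 5323 genes tested were that much higher and 6.59% that much lower. The median log2 ratio of those 5323 genes was -0.06, and 40% of them were higher. Against the mixed library 81 of 84 were lower, with a median of -0.32, and 10 passed 1.5-fold lower, where 5.11% of 5070 genes did (19.9% were higher). Of those 5070 genes 73.1% were higher, with a median log2 ratio of 0.23. The 10 genes past 1.5-fold lower were Rpl6l, Rpl39, Rpl38, Rps27rt, Rps21, Rps28, Rpl12, Rps12, Rpsa and Rps26. The 2 day 11 comparisons share the day 11 library, and their values are given side by side for that reason. Between the steady-state libraries 82 of 84 genes were higher in the mixed library, 14 of them past 1.5-fold, where 4.61% of 5271 genes were (26.7% were lower). Of those 5271 genes only 24.1% were higher in the mixed library, with a median log2 ratio of -0.31. At 1.2-fold, 2 genes were higher and 1 lower at day 11 than in the steady-state macrophage library, where 10.6% and 21.7% of genes were, and 60 were lower and 0 higher than in the mixed library, where 12% and 46.1% were. At 2-fold, 1 gene was lower than in the mixed library, where 2.72% of genes were (6.67% were higher). Among cells with C1q at 0.2% or more, 6 genes were past 1.5-fold lower at day 11 than in the mixed library, where 4.41% of genes were, and 6 were past 1.5-fold higher in the mixed than in the steady-state macrophage library, where 2.88% were.

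A gene was said to depart from the set when its log2 ratio lay 0.5 or more from the set's median in the same direction against both references. Only Rpl6l did so at day 11, at -0.515 and -0.897 from the median. Its level was 317 CPM in steady-state macrophages, 554 CPM in the mixed library and 239 CPM at day 11. Rpl6l (mm10, chr10:111125851-111126721, plus strand) is the processed pseudogene of the set. Its transcript is 98.74% identical to that of Rpl6, which encodes a large-subunit protein, with a longest shared run of 354 bases, so reads of the 2 could be split by the counting. Rpl6 itself stood at 1996, 2558 and 2050 CPM.

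At a smaller departure of 0.3, Rps28 and Rpl38 joined Rpl6l; both are named after their values were seen. Rps28, a small-subunit protein gene, had 2443, 3308 and 2065 CPM in steady-state, mixed-library and day 11 macrophages, so day 11 was lowest (ratios 0.845, 0.836 to 0.854, and 0.624, 0.615 to 0.633). Rpl38, a large-subunit protein gene known for its part in the translation of Hox mRNAs, had 1877, 2782 and 1615 CPM (ratios 0.860, 0.850 to 0.871, and 0.580, 0.571 to 0.590). Rps28 overlaps Kank3 on the opposite strand, and the strand setting of the counting is not given in the sources used here. Rps29, the highest gene, was also lower at day 11 than in both references, at 5415 against 6392 and 7742 CPM. At the upper end stood Rps9, with 2421 CPM in steady-state macrophages, 3083 in the mixed library and 2961 at day 11.

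Some ribosome components carry other symbols, and 2 of them are given beside the set. Fau encodes the small-subunit protein S30 fused to a ubiquitin-like protein, and Gnb2l1 the scaffold protein Rack1. Fau had the same order as most of the set, at 3352 CPM in steady-state macrophages, 4991 in the mixed library and 3846 at day 11. Gnb2l1 had it too, at 780, 1154 and 789 CPM.

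Other gene lists showed little difference between day 11 and the steady-state macrophage library. The translation list held 19 genes, translation factors and other genes listed with TOP tracts, such as Npm1, Hnrnpa1 and Tpt1. The others held 29 ribosome assembly genes, 16 mTOR and TOP regulators and 77 mitochondrial ribosomal protein genes. None of the 19 genes of the translation list, 19 assembly genes and 7 regulators above the minimum passed 1.5-fold. Of the 68 mitochondrial ribosomal protein genes 1 passed in each direction. Median log2 ratios were 0.06, -0.06, -0.07 and 0.03 in that order. Eef1a1, the elongation factor that brings tRNA to the ribosome, had 3712 CPM at steady state and 3962 at day 11. Against the mixed library the medians were -0.17, 0.03, 0.23 and 0.16, and Tpt1, a translation-associated TOP gene, was lower at day 11 (2585 against 4339 CPM).

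The share was then set against the state of the cell within each library. Every cell was thinned to 3000 UMIs so that a status gene had the same chance of being seen in deep and shallow cells. This left out 0, 155 and 81 macrophages (steady state, mixed, day 11) and 0, 17 and 1 DCs. Status and shares came from the thinned cells. Ratios of single genes and paralog balances used all UMIs of the same cells, so deep cells weigh more in them. A status was 1 UMI of Timd4 (a phosphatidylserine receptor of long-lived resident macrophages), Ly6c2 (a monocyte surface protein) or Gpnmb (a glycoprotein of lipid-laden macrophages), or at least 3 of 25 cell cycle genes, and groups under 30 cells were not compared.

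**Figure D3:**
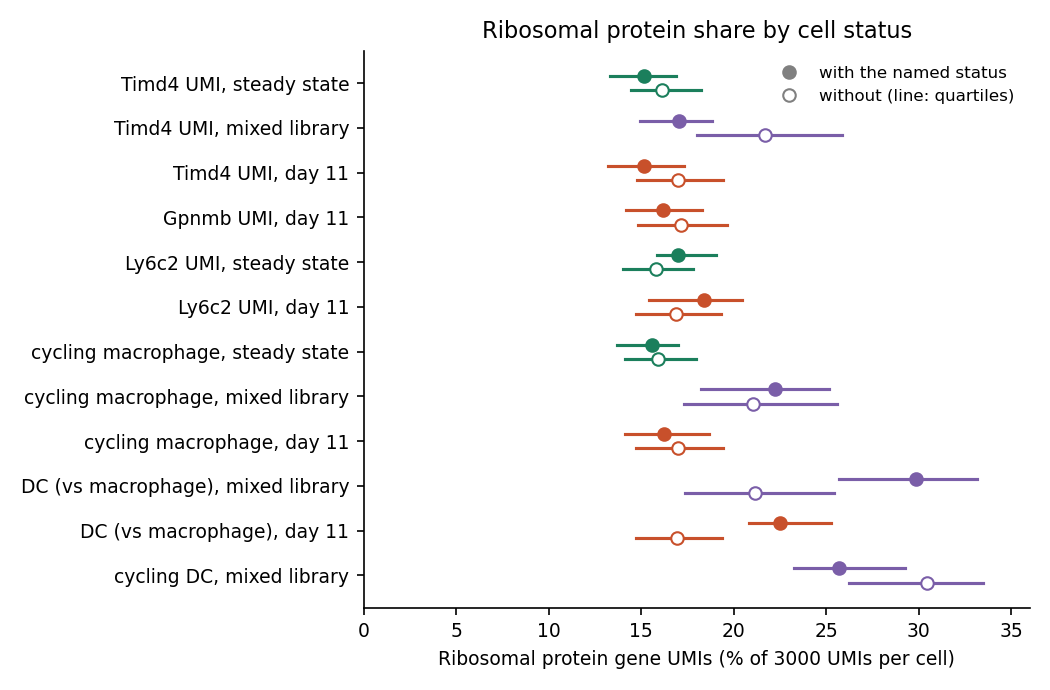
Median share of the 84 genes in cells thinned to 3000 UMIs (horizontal axis, percent), with lines for the quartiles, in cells with (filled) and without (open) each status, by library. The DCs lie to the right of the macrophages in both libraries that hold them, and the Timd4 group lies to the left in all 3.

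Macrophages with a Timd4 UMI had a lower share in each library. The values with and without it were 15.2% and 16.4% at steady state (441 and 1295 cells, ratio 0.931, 0.926 to 0.935), 17.4% and 21.9% in the mixed library (90 and 872 cells, ratio 0.793, 0.785 to 0.80), and 15.4% and 17.2% at day 11 (143 and 4209 cells, ratio 0.893, 0.886 to 0.900). Without thinning the ratios were 0.941, 0.778 and 0.905. In steady-state macrophages the median share was 16.1% with 0 Timd4 UMIs, 15.3% with 1 and 14.9% with 2 or more. In the mixed library 5.94% of the DCs also held a Timd4 UMI (median depth 10948.5 UMIs), against 9.36% of macrophages (6252 UMIs), and the part of free RNA in that group was not tested. None of 43 day 11 DCs held one, which allows up to 8.22%. Among cells with C1q at 0.2% or more the ratio in the mixed library was 0.849. Of the 84 genes, 80, 81 and 80 were lower in Timd4 cells of the 3 libraries in turn, where 54.9%, 63.8% and 59.9% of all genes tested were higher. None passed 1.5-fold in the steady-state or day 11 library (where 0.881% and 3.7% of genes were lower and 0.787% and 7.76% higher). In the mixed library 6 passed lower, where 9.48% of genes did, and 2 higher, Rps19bp1 and Rpl7l1, where 26.4% did.

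Gpnmb and Ly6c2 cells differed from the rest in opposite directions. At day 11 the 801 macrophages with a Gpnmb UMI had a share of 16.3% and the 3551 without it 17.3% (ratio 0.941, 0.938 to 0.944), and the median was 17.1% with 0 UMIs, 16.8% with 1 and 15.7% with 2 or more. A Gpnmb UMI was seen in 18.4% of day 11 macrophages and in 2 of 43 DCs there (4.65%, 0.568% to 15.8%). The other libraries had 26 and 4 such cells, too few to compare. Macrophages with a Ly6c2 UMI had 17.2% against 16% at steady state (59 and 1677 cells, ratio 1.07, 1.06 to 1.09) and 18.3% against 17.1% at day 11 (103 and 4249 cells, ratio 1.07, 1.06 to 1.08), with 24 cells in the mixed library. The median share was 15.8%, 16.5% and 18.1% with 0, 1 and 2 or more Ly6c2 UMIs at steady state, but 16.9%, 18.6% and 17.5% at day 11, where it was not graded. At day 11 a Ly6c2 UMI was seen in 2.37% of macrophages (median 8208.5 UMIs) and in 1 of 43 DCs (2.33%, 0.0589% to 12.3%, 9130 UMIs). That interval is wide and these DCs carried more monocyte marker RNA. Whether the percentage in macrophages stood above that of another cell type there cannot be told. Of the 84 genes 73 and 70 were higher in Ly6c2 cells at steady state and day 11, where 48.6% and 52.9% of all genes tested were. In Gpnmb cells 78 were lower, with a median log2 ratio of -0.08, close to the -0.07 of all genes tested, of which 35.7% were higher. None of the 84 passed 1.5-fold, where 4.27% (steady state) and 7.58% (day 11) of genes were higher in Ly6c2 cells and 4% lower in Gpnmb cells (in the other directions 4.21%, 7.49% and 2.61%).

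Cycling macrophages had about the same pooled share as the others or slightly less. The values were 15.5% against 16.1% at steady state (175 and 1561 cells, ratio 0.960, 0.953 to 0.967), 21.3% against 21.5% in the mixed library (48 and 914 cells, ratio 0.990, 0.978 to 1.00) and 16.5% against 17.2% at day 11 (226 and 4126 cells, ratio 0.957, 0.951 to 0.963). The median over cells ran the other way in the mixed library, at 22.3% in cycling and 21.1% in other macrophages. Cycling cells were deeper, with medians of 15514 and 10351 UMIs at steady state. Of the 84 genes 61, 55 and 50 were lower in cycling macrophages of the 3 libraries in turn. Of all genes tested 59.3%, 65.3% and 62.1% were higher. None of the 84 genes passed 1.5-fold in either direction in cycling macrophages, where 9.97%, 25.6% and 16% of genes were higher and 1.63%, 9.42% and 4.62% lower in the 3 libraries. Cycling DCs of the mixed library had 25.9% against 29.6% in other DCs (88 and 518 cells, ratio 0.875, 0.868 to 0.882). In them 78 of 84 genes were lower, with a median log2 ratio of -0.22. Of the 4399 genes tested 64.4% were higher, with a median of 0.17. Among the 84 genes 1, Rps27rt, passed 1.5-fold lower, where 4.93% of genes did (20.1% were higher). Departing upward from the set by 0.5 or more in cycling DCs were Rps19bp1, at 39.0 against 26.2 CPM (53 and 143 UMIs, ratio 1.49, 1.06 to 2.05), and Rps27l, at 651 against 517 CPM (ratio 1.26, 1.17 to 1.36).

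Cells that met the DC rule stood above macrophages in both libraries that held them. The day 11 group is the one that carried Fcgr1 and more monocyte marker RNA, and the part of these in its result was not tested. In the mixed library the share was 29.1% in 606 DCs and 21.5% in 962 macrophages (ratio 1.35, 1.35 to 1.36), and in the day 11 library 22.6% in 43 DCs and 17.2% in 4352 macrophages (ratio 1.32, 1.30 to 1.33). DCs were also deeper, with 10948.5 against 6252 and 9130 against 8208.5 UMIs per cell, and had lower mitochondrial shares, 1.63% against 1.98% and 1.36% against 2.01%, and the part of these in the result was not tested. The DC rule itself requires C1q under 0.2%. Without thinning, macrophages under that limit gave 25.3% in the mixed library and 17.7% at day 11 (299 and 136 cells). Macrophages at or above it gave 20.1% and 17.2%, and DCs 29.4% and 22.5%. The part of C1q level in the DC result was not tested. Against macrophages with C1q at 0.2% or more the first ratio was 1.46. The 2 ratios come from separate libraries, of different genotypes and days. In them 81 and 80 of 84 genes were higher in DCs, with medians of 0.40 and 0.40 on the log2 scale, where the medians of all genes tested were -0.11 and -0.06 and 40.7% and 47.2% of them were higher. Past 1.5-fold were 9 genes in the mixed library, where 9.98% of genes were (21.1% were lower), and 11 at day 11, where 15.1% were (23.6% were lower). They shared 7 genes, 77.8% of the former and 63.6% of the latter, among them Rpl14, Rpl4, Rplp0, Rps6, Rps7 and Rpsa. The overlap among all genes tested was not computed, so whether this overlap is particular to the set cannot be told.

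**Figure D4:**
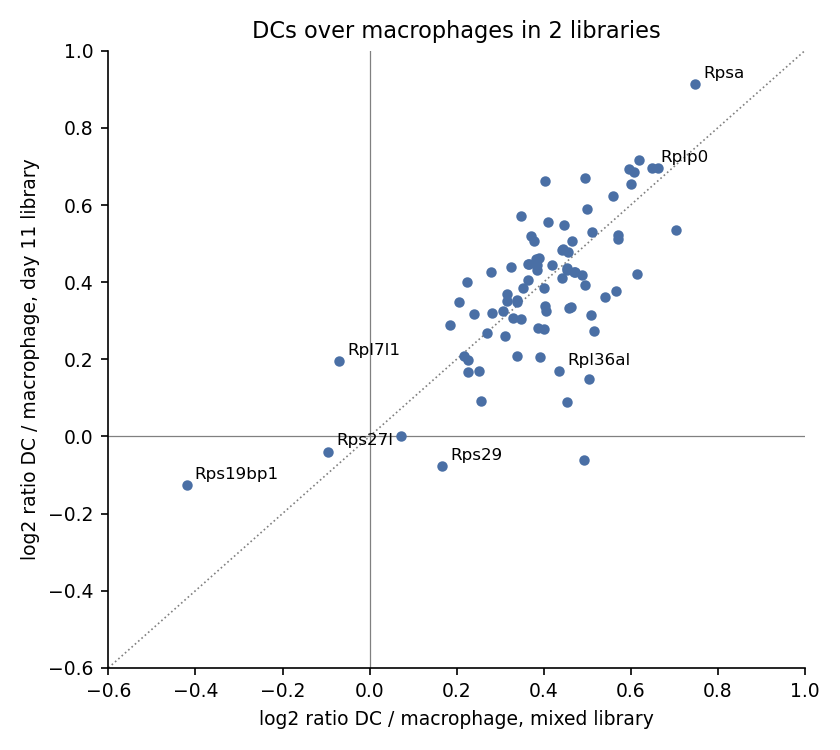
Log2 ratio of each of the 84 genes in DCs over macrophages, in the mixed library (horizontal) and the day 11 library (vertical). The dotted line marks equal ratios. Rpsa is at the upper right (0.75 and 0.91), and Rps19bp1 at the lower left (-0.42 and -0.13).

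The plot of the DC ratios shows which genes stood apart from the common difference. Across the 84 genes the departures from the median in the 2 libraries had a Pearson correlation of 0.70 and a Spearman correlation of 0.60, as a description over genes. Rps19bp1 was the only gene to depart by 0.5 in both, with 28.8 CPM in DCs and 38.5 in macrophages of the mixed library and 36.2 and 39.5 CPM at day 11, the latter from 15 UMIs in DCs. The other genes named here were picked after their values were seen. Rpsa, which encodes a small-subunit protein also known as a laminin receptor, was farthest above the set, at 3219 against 1918 CPM (ratio 1.68, 1.64 to 1.72) and 2306 against 1224 CPM (ratio 1.88, 1.77 to 2.01). Rplp0, the base of the large-subunit stalk, had 4698 against 2997 and 3930 against 2426 CPM. Rps27l was level or slightly lower in DCs, at 544 against 581 CPM (ratio 0.936, 0.894 to 0.979) and 472 against 485 CPM (ratio 0.973, 0.841 to 1.12).

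The translation list was higher in DCs by a similar median. Its 19 genes, not all of them translation factors, had a median log2 ratio of 0.33 in the mixed library and 0.47 at day 11. Past 1.5-fold higher were 3 in the mixed library (Eef1b2, Npm1 and Hnrnpa1) and 4 at day 11 (Eif3e, Eif4b, Hnrnpa1 and Eef1g). Eef1b2, a subunit of the exchange factor of elongation factor 1, stood at 1191 CPM in DCs and 563 in macrophages in the former and 619 and 437 CPM in the latter. Mitochondrial ribosomal protein genes had medians of 0.05 and 0.05, and assembly genes 0.22 and 0.17.

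No gene departed from the set by 0.5 in the Timd4, Gpnmb, Ly6c2 or cycling macrophage contrasts in every library, yet smaller departures recurred between libraries. Across the 84 genes the departures correlated with a Pearson's r of 0.64 to 0.70 for Timd4, 0.71 for Ly6c2 and 0.77 to 0.89 for cycling, between libraries that share no cells, as a description. Spearman's rho was 0.53 to 0.64, 0.73 and 0.79 to 0.87 in the same order. Of the 84 genes, 56 to 60, 64 and 66 to 74 lay on the same side of the median in both libraries of a pair. The same values among all genes tested were not computed, so whether this recurrence is particular to the set cannot be told. Spearman's rho of the log2 ratios with transcript length was 0.33 to 0.35 for cycling macrophages. It was -0.23 to -0.19 for Timd4, and -0.10 and -0.05 for Ly6c2. The part of length was not tested. The following genes were picked after their values were seen. Rps29 was higher in Timd4 cells where nearly all others were lower, at 6735 against 6267 CPM at steady state (ratio 1.07, 1.06 to 1.09), 8882 against 7685 CPM in the mixed library (ratio 1.16, 1.12 to 1.19) and 5746 against 5402 CPM at day 11 (ratio 1.06, 1.04 to 1.09). In Ly6c2 cells Rps29 was lower where most were higher, at 6082 against 6405 and 5085 against 5422 CPM at steady state and day 11. Rplp0 ran the other way. Its ratio was 0.878, 0.586 and 0.811 in Timd4 cells of the 3 libraries in turn, 1.13 and 1.24 in Ly6c2 cells, and 0.835 in Gpnmb cells.

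In cycling macrophages Rps27, Rps29 and Rpl10 were lower and Rpl22l1, Rps27l, Rpsa and Rps20 higher in all 3 libraries. Rps27 had 3154 against 3666 CPM at steady state, 3839 against 4833 in the mixed library and 2562 against 3490 at day 11 (ratios 0.860, 0.794 and 0.734). Rps27l had 536 against 471, 714 against 571 and 582 against 478 CPM (ratios 1.14, 1.25 and 1.22). The 2 paralogs thus differed in opposite directions in each library, and their balance was computed directly from the UMIs of both.

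**Figure D5:**
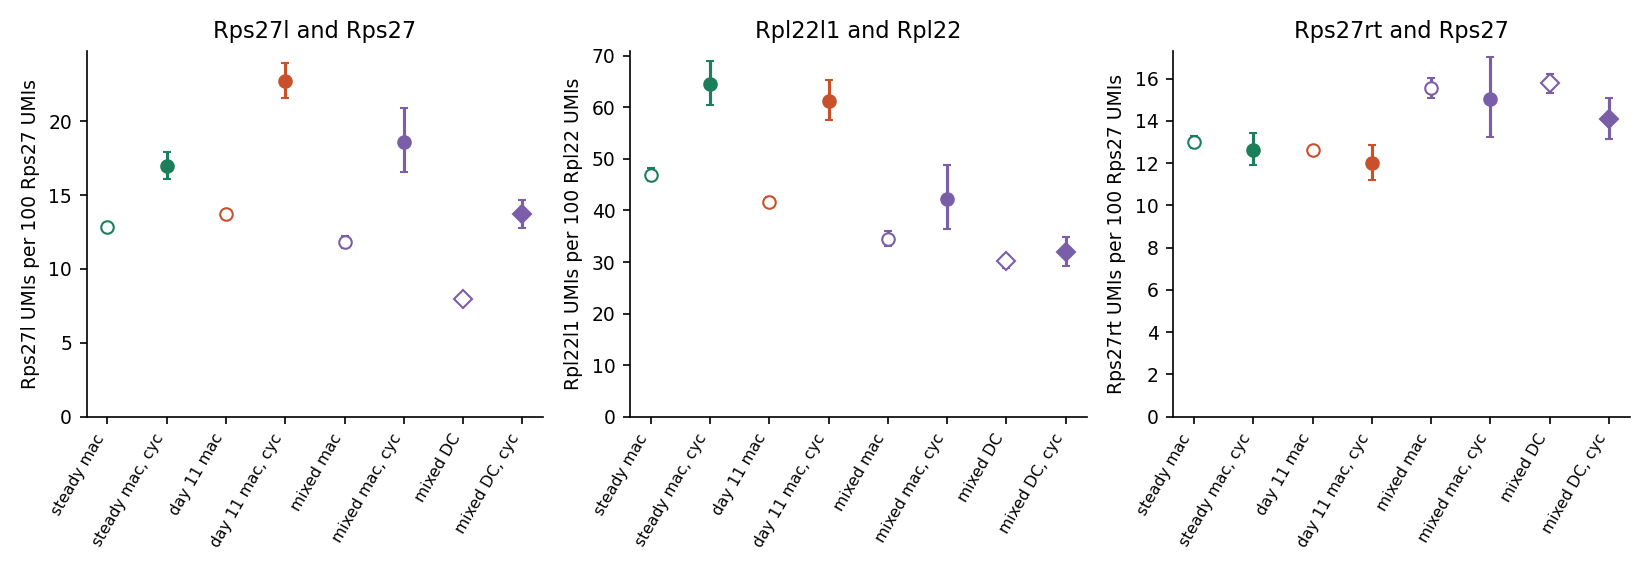
UMIs of a paralog or copy per 100 UMIs of its partner gene (vertical axes, from 0), in macrophages (circles) and DCs (diamonds) that were cycling (filled) or not (open). Colours mark the library: green for steady state, orange for day 11, purple for the mixed library. Bars are exact 95% counting intervals. Rps27l and Rpl22l1 stand higher in cycling macrophages of each library, and Rps27rt follows the library.

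For each 100 Rps27 UMIs there were 17 Rps27l UMIs in cycling and 12.9 in other macrophages at steady state (ratio 1.32, 1.25 to 1.39), 18.6 and 11.8 in the mixed library (ratio 1.57, 1.41 to 1.76) and 22.7 and 13.7 at day 11 (ratio 1.66, 1.58 to 1.74). Cycling DCs of the mixed library had 13.7 and other DCs 7.99 (ratio 1.71, 1.59 to 1.85). All 4 cycling groups lay above their non-cycling group, with intervals that did not overlap. The longest run that the Rps27l and Rps27 transcripts share is 11 bases, so reads of the pair can be told apart. DCs were lower than macrophages of their own library, at 8.87 against 12.2 (ratio 0.726, 0.694 to 0.760) and 10.1 against 14.2 at day 11 (ratio 0.713, 0.617 to 0.821). With only cells of at least 10000 UMIs the former ratio was 0.599.

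Rpl22l1 and Rpl22, paralogs that encode a large-subunit protein and are known to regulate each other's expression, behaved likewise in macrophages. For each 100 Rpl22 UMIs there were 64.5 Rpl22l1 UMIs in cycling and 47.0 in other macrophages at steady state (ratio 1.37, 1.30 to 1.45), 42.2 and 34.5 in the mixed library (ratio 1.22, 1.07 to 1.39) and 61.3 and 41.7 at day 11 (ratio 1.47, 1.39 to 1.55). In cycling DCs the values were 32.0 and 30.1, with an interval that includes 1 (ratio 1.06, 0.975 to 1.15). The longest run they share is 26 bases. Rpl22l1 overlaps an antisense gene by 220 bases, and without a stated strand its reads and those of that gene cannot be told apart.

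Rpl36al and Rpl36a, which encode near-identical large-subunit proteins from different chromosomes, were most unequal between groups in Ly6c2 cells at day 11, a result picked after its values were seen. Macrophages with a Ly6c2 UMI had 74.3 Rpl36al UMIs per 100 Rpl36a UMIs at day 11 and the rest 50.4 (ratio 1.48, 1.38 to 1.58). At steady state the values were 53.9 and 50.8, with an interval that includes 1 (ratio 1.06, 0.973 to 1.16). Without the cell that held the most Rpl36al UMIs the day 11 ratio was 1.44. Over whole macrophage groups the balance was 50.9, 50.7 and 50.9 (steady state, mixed, day 11). Rpl7l1 per 100 Rpl7 UMIs was 4.81, 2.84 and 4.25.

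Rps27rt and Rpl6l, the near-identical copies, differed between libraries, while most of their ratios between cell states of a library had intervals that include 1. The Rps27rt transcript matches Rps27 in 341 of 341 aligned bases. There were 12.9 Rps27rt UMIs per 100 Rps27 UMIs in steady-state macrophages, 15.5 in the mixed library and 12.6 at day 11. Between DCs and macrophages of a library the ratio was 0.999 (0.963 to 1.04) and 1.00 (0.878 to 1.14), and between cycling and other macrophages 0.973, 0.966 and 0.951, each with an interval that includes 1. In cycling DCs it was 0.894 (0.832 to 0.959). Rpl6l gave 15.9, 21.7 and 11.6 UMIs per 100 Rpl6 UMIs in macrophages (steady state, mixed, day 11), a ratio of 0.732 (0.710 to 0.755) and 0.537 (0.518 to 0.558) for day 11 over each reference. Within libraries, its ratio between DCs and macrophages was 1.02 (0.973 to 1.06) and 1.10 (0.925 to 1.29).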

How the data were processed

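The deposited values are raw counts, 1 per UMI, for each gene and barcode, made by the authors with Cell Ranger and STAR on mm10, per the submitters' processing notes; the sources used here give neither versions nor the strand setting. Barcodes were as called by the authors. Cells with at least 500 genes and at most 10% mitochondrial UMIs were kept, and the barcodes with the highest Scrublet scores were removed as doublets (Scanpy 1.11.5), in number 0.8% per 1000 barcodes: 25, 25 and 175 in the steady-state, mixed and day 11 libraries. The automatic threshold marked 4, 2 and 0 and was not used. Reporter entries were left out of totals.

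CPM is the sum of a gene's UMIs over a class of cells per 1000000 UMIs of that class. Genes with 20 CPM in either group were tested for fold only; ratios have exact conditional binomial intervals and shares Clopper-Pearson intervals (SciPy 1.17.1), at 95%. PCR and cell-to-cell spread are not in them. With 1 library per group no test was run. The code for ratios and thinning was tested on simulated data. Start windows came from RefSeq (GRCm38.p6), and copy and parent transcripts were aligned with Biopython 1.88.

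The members and gene lists were chosen with earlier results of these data known. Named genes were the 5 highest, those departing by 0.5, at most 8 in each direction at day 11 and 5 per cell status, paralog-type symbols with partners, the 3 nearest the minimum on each side, list members, status genes and markers; others are said to be picked after their values were seen. Cell filters, doublets, denominators, classes, depth, minimum and fold were varied. The values of some single genes are not reported here.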

Additional observations from a re-analysis of the deposited data

Results flagged for a closer look

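The 16 -ps entries, pseudogene-named symbols outside the 84 genes, held 2479 CPM in the steady-state macrophage library, 5424 CPM in the mixed library and 1780 CPM at day 11, and drew attention because they carry signal that no comparison above uses. As a share of their own and the 84 genes' UMIs they made up 1.51% in steady-state macrophages, 2.10% in macrophages and 2.07% in DCs of the mixed library, and 1.02% in macrophages and 1.06% in DCs at day 11. Cell classes of 1 library were close and libraries were apart. All 11 entries that reached 20 CPM in macrophages had lower CPM at day 11 than in both steady-state references, and all 11 were also lower per UMI of the parent gene. Rpl23a-ps3, 99.79% identical to Rpl23a over its length, is given as an example picked after its values were seen, at 683 CPM in steady-state macrophages and 1213 CPM in those of the mixed library. Between the reporter libraries, which share a genotype, day and library cannot be told apart. In differences from the mixed library, genotype cannot be told apart from library, nor, for day 11, from day.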

How the results depend on the processing

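No paired analysis was possible because each group has 1 library, and for the same reason no replicate could be left out. Of the values that answer a comparison, 131 alternatives stayed near the value given and 66 moved it by more than its counting interval, or by 1.5 times for a count, and 0 changed direction. The C1q restriction and the paralog alternatives were chosen after seeing the data. The depth of each library limits low genes such as Rps19bp1. For the share at day 11 over steady-state macrophages the moved ratios were 1.0627 without the cell filter, 1.0482 without mitochondrial UMIs, 1.0755 without the 50 most abundant other genes, 1.0644 in all kept cells, 1.0580 in non-cycling cells, and 1.0671 and 1.0775 thinned to 3000 and 5000 UMIs. A call at 1.2-fold gave 2 members higher and 1 lower. Over the mixed library they were 0.7777 at 5% mitochondrial UMIs, 0.7889 without the 50 genes, 0.6751 in all kept cells (DCs included), 0.7864 at a C1q threshold of 0.1%, 0.7764 in non-cycling cells, 0.7979 and 0.7635 thinned to 3000 and 5000 UMIs, and 0.8540 with the C1q restriction. Members 1.5-fold lower numbered 34 in all kept cells, where 7.94% of genes were, and 6 with the C1q restriction, where 4.41% were, and 60 and 1 were lower at 1.2-fold and 2-fold. Departing members at day 11 were 3 at 0.3 and 0 at 1.0, in DCs 4 and 0, and in cycling DCs 4 and 0. For Timd4 at steady state the ratio was 0.9080 with at least 2 Timd4 UMIs, 0.9400 with status from the whole cell, 0.9391 and 0.9241 thinned to 2000 and 5000 UMIs, and 0.9414 unthinned. In the mixed library Timd4 gave 0.7814 thinned to 5000 UMIs, 0.7784 unthinned and 0.8490 with the C1q restriction, and at day 11 0.9275 with whole-cell status, 0.9027 at 5000 UMIs and 0.9046 unthinned. Gpnmb gave 0.9133 with at least 2 UMIs, 0.9575 with whole-cell status, and 0.9308 and 0.9465 at 2000 and 5000 UMIs. Ly6c2 at steady state gave 1.0549 with whole-cell status, 1.0510 at 2000 UMIs and 1.0520 unthinned, and at day 11 1.0471 with at least 2 UMIs, 1.0536 with whole-cell status, 1.0918 at 2000 UMIs, 1.0803 unthinned and 1.0930 with the C1q restriction. Cycling at 2000 and 5000 UMIs gave 0.9526 and 0.9849 at steady state, 0.9519 and 0.9562 in the mixed library (0.9657 unthinned), and 0.9433 and 0.9716 at day 11 (0.9636 unthinned). DCs over macrophages in the mixed library gave 1.3769 and 1.3159 at 2000 and 5000 UMIs, 1.3316 unthinned, 1.3476 without mitochondrial UMIs and 1.4637 with the C1q restriction. Cycling DCs gave 0.8875, 0.8820 and 0.8638 at 2000 UMIs, 5000 UMIs and unthinned. Among single genes and lists, 3 values changed sign, and the cause was not tested. At a minimum of 50 CPM, where fewer genes enter, the assembly list gave 0.0334 over steady state and -0.139 over the mixed library. Rpl36al per Rpl36a in DCs over macrophages of that library was 0.996 in cells of at least 10000 UMIs.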
